A study of Mus musculus with 2 samples.

Results

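The genes described here are 10 genes of the actin cytoskeleton and of its partners at the plasma membrane, among 27998 genes counted in single cells of the mouse fetal ovary. They are the β-thymosins Tmsb4x and Tmsb10, the cytoplasmic actins Actb and Actg1, the annexins Anxa1, Anxa2 and Anxa5, and the S100 proteins S100a6, S100a10 and S100a11. All 10 symbols matched 1 row each in both libraries. They were chosen from the measured contrast of germ against granulosa cells, in which earlier results of the same data had Tmsb4x and Anxa2 among the lowest genes of germ cells, so their germ against somatic values are a description and carry no test.

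The study asked what loss of the glucocorticoid receptor (GR, encoded by Nr3c1) does in the fetal ovary at E15.5 (the embryonic day), when female germ cells are in meiotic prophase. The WT library pooled ovaries of 4 embryos and the KO library ovaries of 2 embryos. KO embryos carried a GR deletion allele made from the floxed allele Nr3c1tm1.1Jda with a ubiquitous β-actin cre, Tmem163Tg(ACTB-cre)2Mrt, so that the deletion was germline and present in every cell. Both genotypes carried the Pou5f1-GFP transgene Tg(Pou5f1-EGFP)2Mnn, which marks germ cells and was used to sort them before they were mixed with GFP-negative somatic cells at 60 to 40. The mixing set the ratio of germ to somatic cells. Each genotype is 1 library, so the effect of genotype cannot be told apart from differences of embryo pool, sorting or capture, and no p-value can be given. All intervals are 95% intervals that cover counting error only.

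Actin exists as monomers and as filaments. β-thymosins bind the monomers and hold them in reserve, while the cytoplasmic β- and γ-actins (Actb, Actg1) build the cortical network of nearly every cell. Annexins bind phospholipid membranes when calcium rises, and S100 proteins are small EF-hand dimers, several of which bind annexins: S100A10 pairs with annexin A2 at the membrane, and S100A11 binds annexin A1. Free actin monomer also restrains the cofactors of serum response factor (SRF), a transcription factor that binds the CArG box and drives many actin genes. In the ovary at this age, germ cells lie in nests surrounded by pregranulosa cells, with stromal theca precursors between the nests and an epithelium over the surface.

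The 10 genes lie on 7 chromosomes of the GRCm38 build, all as protein-coding genes in the GENCODE M21 annotation. Tmsb4x lies at chrX:167207093-167209315, Tmsb10 at chr6:72957347-72958748, Actb at chr5:142903115-142906754 and Actg1 at chr11:120345690-120348542, all on the minus strand. Anxa1 lies at chr19:20373428-20390944 and Anxa5 at chr3:36448923-36475894 on the minus strand, and Anxa2 at chr9:69453620-69491795 on the plus strand. The S100 genes share the plus strand of chromosome 3 within 2952 kb, S100a6 at chr3:90612882-90624181, S100a11 at chr3:93520488-93526287 and S100a10 at chr3:93555080-93564643. Near-identical copies limit some counts: the transcripts of Tmsb10, Actg1 and S100a11 matched 1, 6 and 2 other annotated genes (identity of 95% or more along 200 bases or more), and the other 7 genes matched none. Only the Tmsb10 copy, Gm9844 (99% identical over 413 bases), has a row of its own in the count tables, at 1.09 CPM in WT and 0.975 CPM in KO germ-like cells, so reads of these 3 genes may have been split or dropped.

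RefSeq promoter windows of 300 bases (250 before to 50 after the annotated start, GRCm38.p6) were at hand for 8 of the 10 genes. Actb and S100a10 had none and were not searched. Against 1.81% of 27025 genes, a CArG box was found on either strand in the windows of Actg1 and Anxa5. They are shown because SRF sites of this kind are the known control elements of actin genes, with the box in capitals and 10 bases on either side, both read on the minus strand.
Actg1 CArG box, 90 bases before the start, chr11:120348566-120348595: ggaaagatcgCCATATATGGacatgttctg
Anxa5 CArG box, 25 bases after the start, chr3:36475843-36475872: cgggctgggaCCTAATTAGGgaggtggcca
The letters TATAAA were found on either strand in the windows of Anxa1 and Anxa2, against 15.7% of the same 27025 genes. A match is a description of the letters and not of a bound site.

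WT held 11430 cell barcodes with 168483330 UMIs (unique molecular identifiers, each standing for 1 captured transcript), of which 9045 cells passed the limits of the study, with a median of 15685 UMIs. KO held 17829 barcodes with 186117981 UMIs and 15502 kept cells, with a median of 10194.5 UMIs. The libraries shared 27 barcodes among kept cells. Cells were clustered without the 10 genes and named from marker genes with the suffix -like, which gave 6804 WT and 10220 KO germ-like cells, 921 and 2026 granulosa-like, 828 and 1890 theca-like, and 400 and 1068 epithelia-like cells, beside small endothelia-, perivascular-, immune- and erythroid-like classes of 14 to 136 cells. Foxl2, a defining granulosa gene, stood at only 3.83 CPM in WT and 2.59 CPM in KO granulosa-like cells. Nr3c1 in KO cells stood at 16.1% of its WT level in germ-like cells and at 24.0% to 25.5% in the larger somatic-like classes.

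Levels are given as UMIs of the gene per 1000000 UMIs, both summed over the cells of a class (CPM). Tmsb4x, the main actin monomer reserve of most cells, spanned the widest range in CPM. It stood at 33.8 CPM (32.8 to 34.9) in WT and 44.1 CPM (42.9 to 45.3) in KO germ-like cells. Granulosa-like cells held 3459.6 and 3139.6 CPM, theca-like cells 1988.4 and 1680.9 CPM, and epithelia-like cells 2803.0 and 2577.7 CPM in WT and KO. Immune-like cells held 27572.1 and 20191.3 CPM and endothelia-like cells 9767.2 and 6546.6 CPM, so that germ-like cells stood lowest and immune-like cells highest in both libraries. Tmsb10, its close relative, ordered the classes differently. Germ-like cells held 188 and 196 CPM, granulosa-like cells 760 and 671 CPM, theca-like cells 1347.3 and 1161.4 CPM, and epithelia-like cells 1501.8 and 1374.7 CPM. Its highest level was in endothelia-like cells (4508.8 and 3498.8 CPM), and immune-like cells, the peak of Tmsb4x, held only 431 and 577 CPM. Erythroid-like cells held 205 CPM in WT and 165 CPM in KO, so that the intervals of erythroid- and germ-like cells overlapped in WT.

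**Figure D1:**
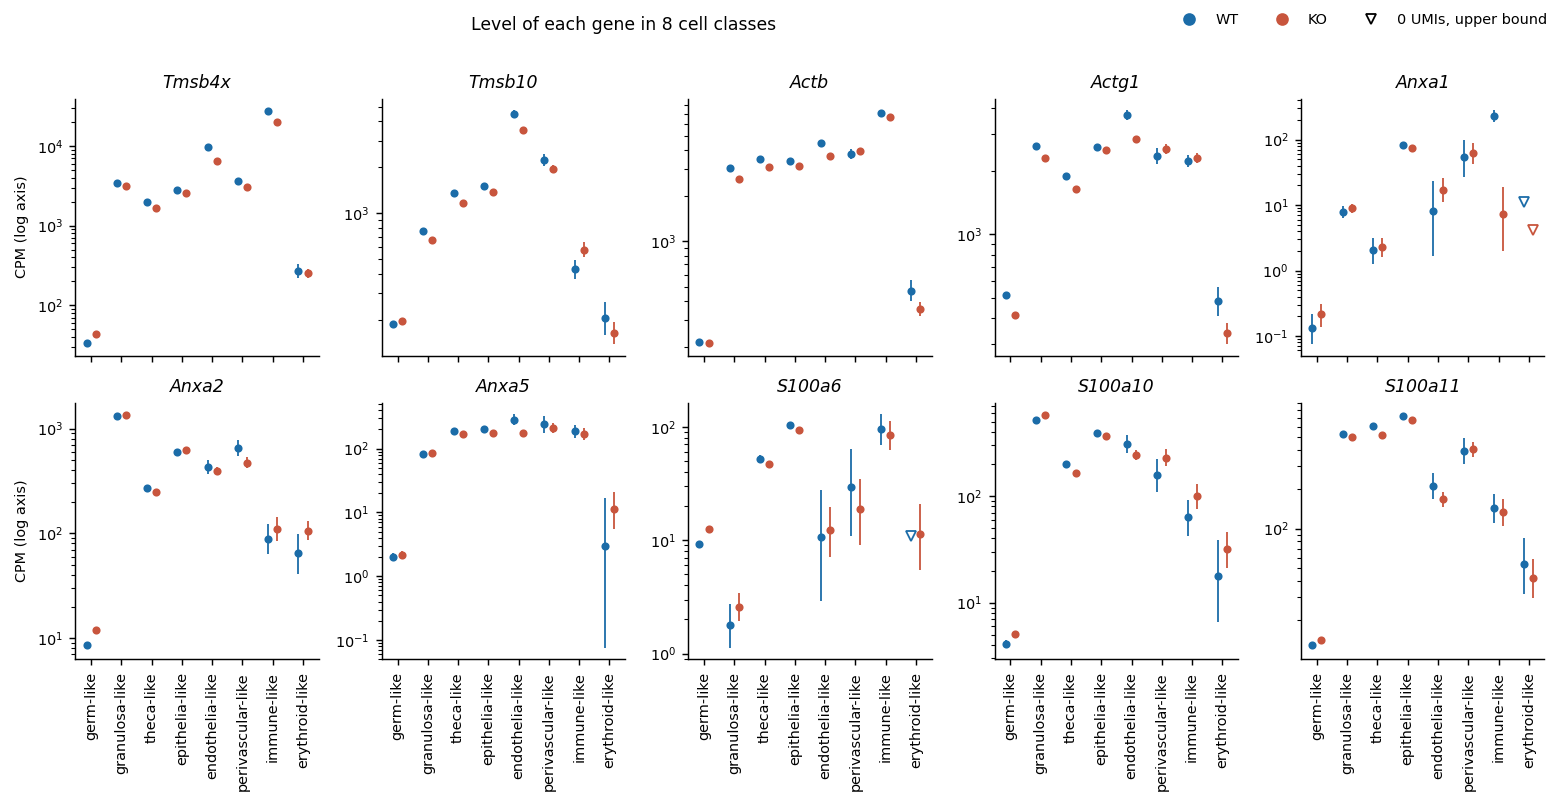
Level of each gene (CPM, log axis) in the 8 cell classes of the WT and KO libraries, with 1 point for each class and library, bars for the 95% counting interval and open triangles for the upper bound of a count of 0. Germ-like cells lie far below the granulosa-, theca- and epithelia-like classes for every gene except S100a6, whose granulosa-like level was the lower at 1.79 CPM in WT and 2.59 CPM in KO.

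The actins differed less between germ and somatic cells than Tmsb4x did. Actb was at 214 CPM (212 to 217) in WT and 211 CPM (208 to 214) in KO germ-like cells, against 3068.1 and 2581.3 CPM in granulosa-like, 3488.4 and 3075.7 CPM in theca-like and 3405.5 and 3157.7 CPM in epithelia-like cells. Actg1 stood at 512 CPM (508 to 516) and 411 CPM (408 to 415) in germ-like cells, against 2637.3 and 2314.6 CPM in granulosa-like, 1891.0 and 1646.5 CPM in theca-like and 2603.4 and 2526.8 CPM in epithelia-like cells. Actb was highest in immune-like cells (7096.3 and 6627.4 CPM) and Actg1 in endothelia-like cells (3691.7 and 2850.4 CPM). The lowest Actg1 levels were those of erythroid-like cells, at 479 and 338 CPM, whose WT interval (408 to 559) held the germ-like value.

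The annexins were near 0 in germ-like cells and each had its own somatic pattern. Anxa2, which tethers actin to membranes, was a granulosa gene here, with 1310.4 CPM in WT and 1350.1 CPM in KO granulosa-like cells, 602 and 629 CPM in epithelia-like, 272 and 249 CPM in theca-like, and 8.6 and 12.1 CPM in germ-like cells. Anxa5, known for binding phosphatidylserine on dying cells, was lower in granulosa-like cells (83.4 and 86.8 CPM) than in theca-like (191 and 171 CPM) or epithelia-like cells (202 and 179 CPM). Its germ-like level was 2.01 and 2.16 CPM. Anxa1, which is itself induced by glucocorticoids in many tissues, was mainly an epithelia-like gene at 83.3 CPM in WT and 74.4 CPM in KO, with 7.91 and 8.98 CPM in granulosa-like and 2.06 and 2.3 CPM in theca-like cells. Germ-like cells gave only 16 WT and 26 KO UMIs of Anxa1, or 0.132 and 0.213 CPM. The WT immune-like level of Anxa1, 230 CPM, was set by few cells: of 101 UMIs in 9 of 32 cells, 55 came from 1 cell, and KO immune-like cells gave 4 UMIs.

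S100a10 followed its partner Anxa2. Granulosa-like cells held 516 and 574 CPM of it, epithelia-like cells 390 and 367 CPM, theca-like cells 199 and 163 CPM, and germ-like cells 4.13 and 5.05 CPM. S100a11 was more even over the larger somatic classes, at 522 and 499 CPM in granulosa-like, 603 and 520 CPM in theca-like and 724 and 667 CPM in epithelia-like cells, with 13 and 14.2 CPM in germ-like cells. S100a6, a calcium sensor of mesenchymal and epithelial cells, stood apart from the other 9 genes. It was nearly absent from granulosa-like cells, at 1.79 CPM (1.12 to 2.72) in WT and 2.59 CPM (1.93 to 3.42) in KO, and higher in germ-like cells, at 9.17 CPM (8.64 to 9.73) and 12.6 CPM (12 to 13.3). Theca-like cells held 52.3 and 46.8 CPM and epithelia-like cells 104 and 93.3 CPM. Outside a cluster of 126 cells, the epithelia-like level of S100a6 was 24.7 and 29.2 CPM, below the theca-like one. Among neighbours in each gene's order of the 8 classes, intervals overlapped for 24 of 70 pairs in WT and 21 of 70 in KO, mostly where a class of few cells was involved.

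Across the 16 levels formed by 8 classes in 2 libraries, which share library and depth, the log2(CPM + 1) levels of Anxa2 and S100a10 had a Pearson r of 0.968, those of Tmsb4x and Actb 0.965, and those of Actb and Anxa5 0.962. The lowest r among the 45 pairs of members was 0.052, between Anxa2 and S100a6. Of 3091 genes compared in the same way, the 5 most like Tmsb4x were Ier2 (0.976), Clic1 (0.976), Litaf (0.975), Junb (0.974) and Ctsz (0.972), and the 5 most like Actb were Tmem50a (0.985), Abracl (0.985), Cuedc2 (0.983), Npc2 (0.983) and Ier2 (0.981).

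To place the members among all genes, the size limit of the study was used, a difference of at least 0.25 in the natural log of counts per 10000 plus 1. A gene needed 100 UMIs or more over the compared cells to be counted. Against granulosa-like cells, 8 of 10 members were lower past this limit in germ-like cells of both libraries and none was higher, where 11.2% of all genes were lower in WT and 10.3% in KO. Anxa1 and S100a6 did not pass it. Against theca-like cells, 9 of 9 members with enough UMIs were lower in both libraries, beside 9.71% and 8.85% of all genes, and Anxa1 had too few UMIs. Against epithelia-like cells, 10 of 10 were lower in both libraries, beside 10% and 9.97% of all genes. S100a6 no longer passed with the 126-cell cluster left out of the epithelia-like class (log2 ratios -1.43 in WT and -1.21 in KO) or with clusters at resolution 1.0, and 9 of 10 then passed in both libraries. The median log2 ratio of germ-like over granulosa-like CPM among the members was -5.35 in WT and -5.23 in KO, against 0.11 and 0.05 over all genes. Tmsb4x had the largest negative difference of all genes against granulosa-like and epithelia-like cells in both libraries, and ranked 2 in WT and 3 in KO against theca-like cells. S100a6 was the reverse in granulosa-like cells, with germ-like over granulosa-like log2 ratios of 2.35 and 2.28.

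How much of the remaining germ-like signal belongs to germ cells was set against somatic marker genes, which germ cells should lack. Of 27 such markers, 25 had enough UMIs, and their germ-like level was 1.65% of the pooled granulosa-, theca- and epithelia-like level in WT (median, range 0.357% to 7.51%) and 1.84% in KO (range 0.822% to 8.56%). Tmsb4x stood at 1.20% in WT and 1.75% in KO, Anxa2 at 1.09% and 1.51%, S100a10 at 1.09% and 1.31%, Anxa5 at 1.35% and 1.56%, and Anxa1 at 0.531% and 0.854%. These 5 genes lay below the marker median in both libraries, so their germ-like counts are not read as expression in germ cells. Without the mixed group of germ-like cells described next, Anxa5 in WT lay above that median, at 1.15% against 0.986%, and within the range of the markers. S100a11, at 2.16% and 2.57%, and Actb, at 6.52% and 7.28%, lay above the median and within the range. Actg1 (21.5% and 19%), S100a6 (20.8% and 30.2%) and Tmsb10 (16.5% and 19.2%) lay above the whole range of the markers, so that germ-like cells carried these 3 at levels beyond those of somatic markers.

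**Figure D2:**
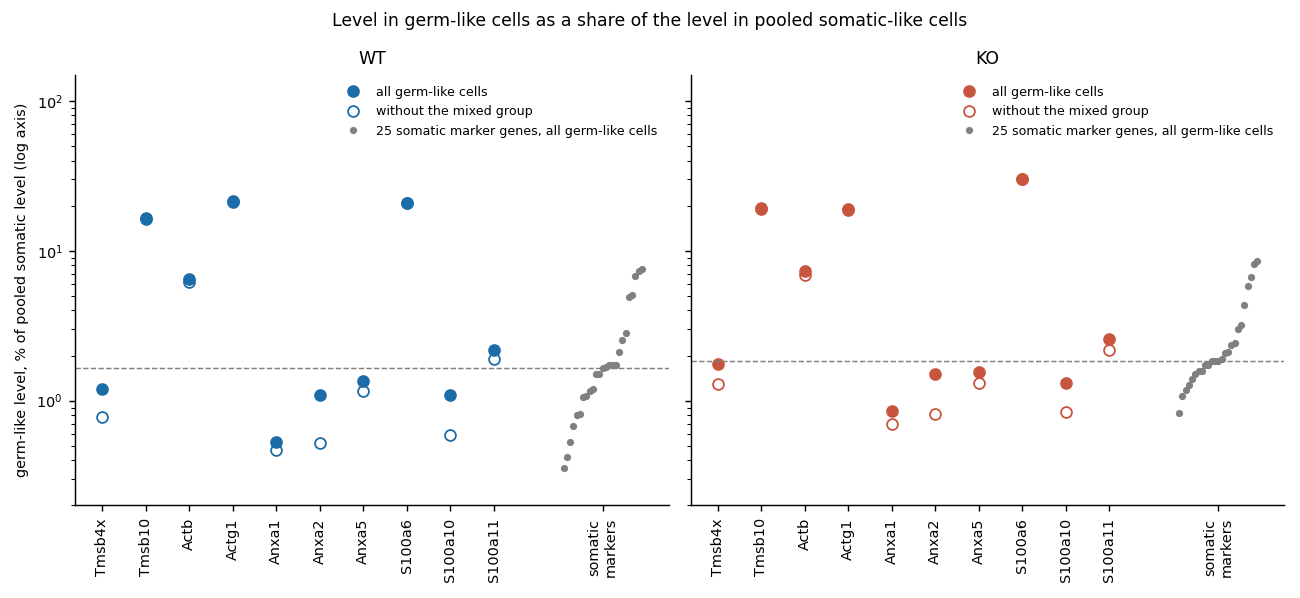
Germ-like level of each gene as a percent of the pooled granulosa-, theca- and epithelia-like level (log axis) in WT and KO, filled for all germ-like cells and open without the mixed group, with the 25 somatic marker genes in grey and their median as a dashed line. Actg1, S100a6 and Tmsb10 lie at 16.5% to 30.2%, above the markers, while Tmsb4x, Anxa1, Anxa2, Anxa5 and S100a10 lie at or under 1.75%, among them.

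Part of this signal sat in few cells. A germ-like group of 82 WT cells (1.2%) and 135 KO cells (1.3%) also carried granulosa markers, and Scrublet called 37.8% and 61.5% of its cells doublets against 1.34% and 2.98% of the other germ-like cells. This mixed group held 36.7% (35.3% to 38.2%) of germ-like Tmsb4x UMIs in WT and 27.3% (26.1% to 28.5%) in KO, 52.6% and 46.7% of those of Anxa2, and 46.5% and 37.3% of those of S100a10. It held only 0.902% and 1.23% of the S100a6 UMIs and 2.94% and 3.57% of those of Actg1. Without it, the germ-like level of Tmsb4x was 0.773% of the somatic level in WT and 1.29% in KO, and the marker median 0.986% and 1.45%. In single cells, 68.9% of WT and 68.7% of KO germ-like cells had no Tmsb4x UMI, whereas 39 WT and 74 KO cells had more than 5, of which 37 and 70 were in the mixed group. After thinning every cell to 3000 UMIs, a Tmsb4x UMI was present in 6.72% of WT and 10.5% of KO germ-like cells (31.1% and 31.3% unthinned, with median depths of 17112 and 11325 UMIs), against 99.3% and 99.1% of granulosa-like cells. The same thinned shares were 68.5% and 63.0% for Actg1, 38.9% and 41.8% for Tmsb10 and 39.7% and 39.1% for Actb. For S100a6 they were 2.50% and 3.55% in germ-like cells (13.5% and 12.8% unthinned), against 0.326% and 0.444% in granulosa-like cells.

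Germ transcripts were also counted in somatic-like cells. The 9 germ markers stood at a median of 10.5% of their germ-like level in WT and 16.2% in KO granulosa-like cells. Theca-like cells had 15.3% and 23.1%, and epithelia-like cells 9.71% and 10.9%. The somatic-like classes therefore held germ transcripts in both libraries, and each class as a whole held more of them in KO. At a finer clustering this did not hold in every cluster. Summed germ markers stood at 4.35% of the germ-like level in WT and 4.02% in KO in the largest granulosa-like cluster. In the largest theca-like cluster they stood at 9.57% and 3.12%. A granulosa-like cluster with doublet calls in 8.06% and 31.3% of its cells had 20.2% and 38.7%.

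The balance within each gene family also differed between germ and somatic cells. Each UMI of a 3-prime assay stands for a transcript of any length, and shares are compared between classes, not as absolute amounts of either gene. Actb made up 29.5% (29.2% to 29.8%) of the actin UMIs of Actb and Actg1 in WT germ-like cells and 33.9% in KO, whereas granulosa-like cells had 53.8% and 52.7%, theca-like cells 64.8% and 65.1%, epithelia-like cells 56.7% and 55.5% and immune-like cells 76.0% and 74.2%. Tmsb4x made up 15.2% (14.8% to 15.7%) of the thymosin UMIs in WT and 18.4% in KO germ-like cells, whereas granulosa-like cells had 82.0% and 82.4%, theca-like cells 59.6% and 59.1%, epithelia-like cells 65.1% and 65.2% and immune-like cells 98.5% and 97.2%. As a whole class, germ-like cells thus held more Actg1 than Actb and more Tmsb10 than Tmsb4x. The granulosa-, theca- and epithelia-like cells held more Actb than Actg1 and more Tmsb4x than Tmsb10. The germ-like Tmsb4x share includes the mixed group, where it was 75.7% and 69.6%. In the 7 other germ-like groups described below it was 4.83% to 13.8% in WT and 2.63% to 16.2% in KO. In groups 1 to 3 of these, Actb made up 50.1% to 61.3% of the actin UMIs.

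Germ-like cells were clustered again, without the 10 genes, into 7 groups and the mixed group, and the groups were put in an order that began with the most premeiotic group and went each time to the remaining group of highest correlation over 3433 genes. Group 1 (410 cells over both libraries) was led by premeiotic genes such as Pou5f1 (68.8 and 73.8 CPM, although group 6 also held 61.5 and 51.1 CPM of it). It also carried genes of meiotic entry, with Stra8 at 633 and 749 CPM and Rec8 at 95.7 and 134 CPM. Its Rec8 level lay above that of group 3 (29.5 and 22.3 CPM). Groups 2 and 3 (770 and 1514 cells) were led by genes of meiotic entry such as Stra8 and Rec8. Groups 4 and 5 (3781 and 1237 cells) were led by recombination genes such as Dmc1 and Prdm9, and group 7 (104 cells) by later prophase and oocyte genes such as Sohlh1. Group 6, the largest with 8991 cells, was led by none of the lists and came between groups 5 and 7 by this order, without a stage name. Group 7 held 86 WT cells and only 18 KO cells, so its KO values rest on few UMIs.

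Actb was high at both ends of this order and low in its middle. It stood at 623 and 685 CPM in group 1, 499 and 512 CPM in group 2, 190 and 184 CPM in group 3, 90.8 and 101 CPM in group 4, 88.3 and 106 CPM in group 5, 210 and 188 CPM in group 6 and 505 and 546 CPM in group 7, with WT before KO. Group 1 was 6.86-fold above group 4 in WT and 6.80-fold in KO. Scrublet called 8.54% of group 1 cells doublets, the highest share of the 7 groups, and 2.3% of group 4 cells. With doublets left out, the Actb log2 ratio of group 7 over group 1 was -0.29 in WT and -0.38 in KO. The ratio of group 1 over group 4 was not computed without doublets. The order of the groups rests on the clustering: at a germ resolution of 0.6 instead of 0.3 it ended in a group of 1103 cells, of which 96.9% were group 5 cells, and the Actb log2 ratio of last over first group was -2.89 in WT and -2.80 in KO instead of -0.30 and -0.33. Actg1 had its lowest level in group 3 and its highest in group 7. Its levels from group 1 to group 7 were 621, 337, 159, 254, 280, 647 and 1377.5 CPM in WT and 554, 323, 182, 243, 260, 583 and 1168.0 CPM in KO. The Actb share of actin UMIs went from 50.1% and 55.3% in group 1 and 59.7% and 61.3% in group 2 to 26.3% and 29.3% in group 4, and was 24.0% to 31.9% in groups 5 to 7 of both libraries.

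**Figure D3:**
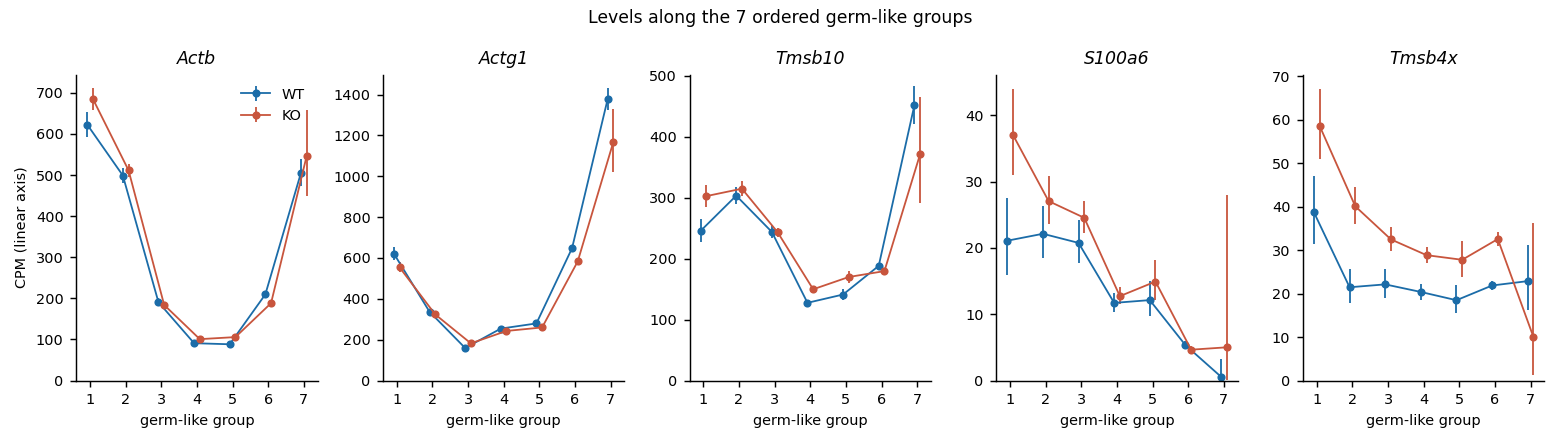
Level of Actb, Actg1, Tmsb10, S100a6 and Tmsb4x (CPM, linear axis from 0) in the germ-like groups of WT and KO, with 95% counting intervals. The order began with the most premeiotic group and followed correlation between groups, and group 6 has no stage name. Actb and Actg1 dip in groups 3 to 5 and are higher in group 7, while S100a6 goes from 21.1 CPM in WT group 1 to 5.35 CPM in WT group 6, and the KO points of group 7 rest on 18 cells.

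Tmsb10 dipped in groups 4 and 5. It stood at 245 and 302 CPM in group 1 and 303 and 315 CPM in group 2, at 127 and 150 CPM in group 4, and at 451 and 371 CPM in group 7. S100a6 was highest in groups 1 to 3 and lowest in groups 6 and 7. It stood at 21.1 and 37.1 CPM in group 1, 22.1 and 27.1 CPM in group 2, 20.8 and 24.6 CPM in group 3, 11.7 and 12.7 CPM in group 4, 12.1 and 14.9 CPM in group 5 and 5.35 and 4.65 CPM in group 6. In group 7, 1 UMI was found in each library. Thinned to 3000 UMIs, S100a6 was seen in 7.48% of WT and 13.3% of KO cells of group 1 and in 1.19% and 1.38% of those of group 6. Tmsb4x was nearly flat from group 2 to group 6 in WT, at 18.5 to 22.1 CPM. In KO it went from 40.1 CPM in group 2 to 27.8 CPM in group 5 and was 32.5 CPM in group 6. Group 1 held 38.7 and 58.6 CPM of Tmsb4x, and the mixed group 803 and 748 CPM. Anxa2 stood at 3.03 to 8.58 CPM over the 7 WT groups and at 293 CPM in the WT mixed group.

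From group 1 to group 7 in WT, 4 members had enough UMIs and 2 were higher past the size limit, Tmsb10 (log2 ratio 0.88) and Actg1 (1.15), where 13.8% of all genes were higher and 12.6% lower. In KO, 5 members had enough UMIs, Actg1 was higher (1.08), and Tmsb4x (-2.55) and S100a6 (-2.89) were lower on 2 and 1 UMIs in the 18 cells of group 7, beside 11.2% of all genes higher and 17.9% lower. Nothing is read from these counts, since few members had enough UMIs and the KO values rest on 18 cells. With group 6 as the end instead, which avoids the thinly filled group, only Actb passed in WT (log2 ratio -1.57) and Actb (-1.86), Tmsb10 (-0.75) and S100a6 (-2.99) passed in KO, all lower, where 8.72% of all genes passed in either direction in WT and 10.2% in KO.

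Among the somatic-like classes, the members did not move as a set. In theca-like against granulosa-like cells of both libraries, Tmsb10, Anxa5 and S100a6 were higher past the limit and Tmsb4x, Actg1, Anxa2 and S100a10 were lower, where 4.41% of all genes were higher and 4.85% lower in WT, and 3.58% and 3.98% in KO. In epithelia-like against granulosa-like cells of WT, Tmsb10, Anxa1, Anxa5, S100a6 and S100a11 were higher and Anxa2 lower, beside 3.15% and 3.17% of all genes. In KO the higher genes were the same without S100a11, and Anxa2 and S100a10 were lower, beside 2.77% and 2.38% of all genes. Actb passed the limit in neither comparison. Without the 126-cell cluster, S100a6 did not pass it in epithelia-like against granulosa-like cells, with differences of 0.203 in WT and 0.23 in KO.

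At a finer clustering, a cluster of 126 cells held most of the epithelia-like S100a6. Its 40 WT and 86 KO cells were 10% and 8.05% of the epithelia-like class and held 77.9% and 70.5% of the class's S100a6 UMIs, at 1115.0 and 1135.1 CPM, against 24.7 and 29.2 CPM in the rest of the class. Scrublet called 2.5% and 2.33% of these cells doublets. They carried both epithelial and stromal genes, with Upk3b at 260 and 251 CPM, Krt19 at 280 and 218 CPM, Tcf21 at 235 and 213 CPM and Col1a1 at 585 and 499 CPM, so they were named epithelia-like at the coarser clustering and theca-like at the finer. Germ transcripts also differed between some of the other clusters within a class, though not between all. A theca-like cluster of 60 WT and 326 KO cells had the lowest theca-like Tmsb4x (921 and 764 CPM) and Actb (1804.4 and 1589.3 CPM), together with doublet calls in 53.3% and 68.1% of its cells and germ markers at 62.3% and 64.8% of the germ-like level. Of the larger granulosa-like clusters, that with few doublet calls (1.76% and 1.73%) held 3340.3 and 3433.2 CPM of Tmsb4x, and that with more (8.06% and 31.3%) held 3781.2 and 2634.1 CPM. A small granulosa-like cluster of 101 cells also had few doublet calls (2.38% and 3.39%).

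**Figure D4:**
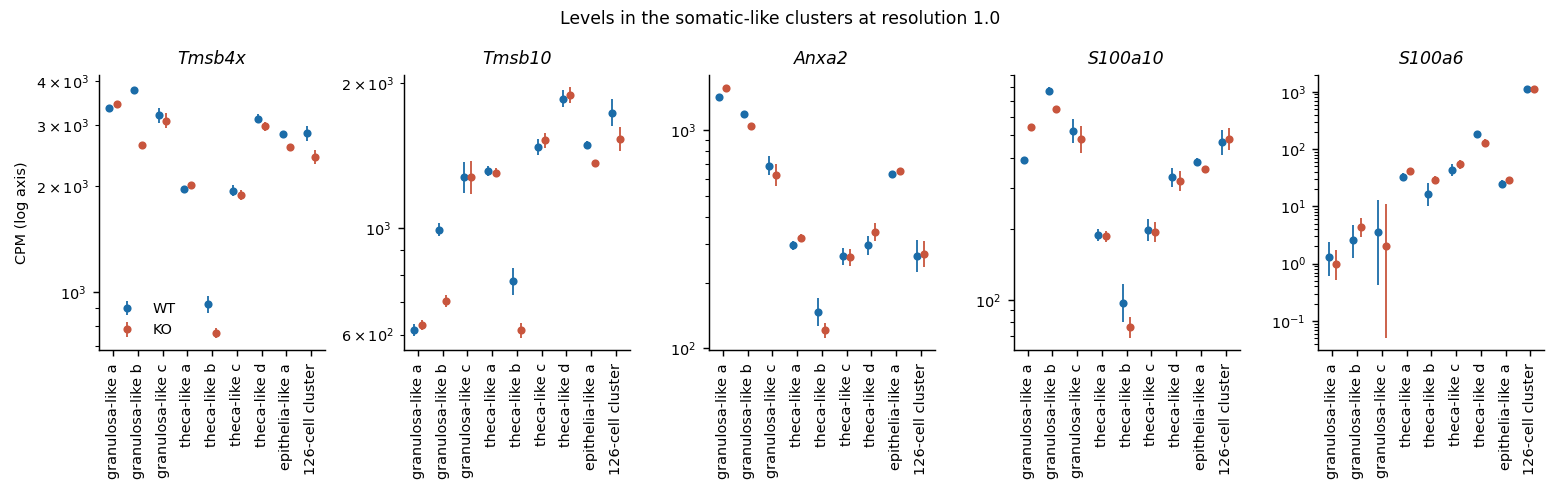
Level of Tmsb4x, Tmsb10, Anxa2, S100a10 and S100a6 (CPM, log axis) in the finer somatic-like clusters of WT and KO, with 95% counting intervals. S100a6 stands at 1115.0 CPM in WT and 1135.1 CPM in KO in the 126-cell cluster and far lower elsewhere, and theca-like b, the cluster with the most doublet calls, has the lowest theca-like Tmsb4x.

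Between KO and WT, none of the members passed the size limit in germ-like, granulosa-like, theca-like or epithelia-like cells, among 9, 9, 9 and 10 with enough UMIs, beside 0.174%, 0.289%, 0.395% and 0.22% of all genes. With the same limits on cells in both libraries, 3 members passed in theca-like cells, all lower in KO (Tmsb4x with a log2 ratio of -0.47, Tmsb10 -0.40 and S100a11 -0.44), beside 1.87% of all genes. With the limits of the study, the largest absolute difference in the natural log of counts per 10000 plus 1 reached 0.18 in germ-like cells, 0.167 and 0.159 in granulosa- and theca-like cells, and 0.0827 in epithelia-like cells. In germ-like cells the log2 ratio of KO over WT was 0.38 (0.32 to 0.44) for Tmsb4x, 0.49 for Anxa2, 0.46 for S100a6 and 0.29 for S100a10. It was -0.32 for Actg1, -0.02 for Actb, 0.06 for Tmsb10, 0.11 for Anxa5, 0.13 for S100a11 and 0.69 for Anxa1 (-0.27 to 1.68). Counting intervals held 0 for Actb, Anxa1 and Anxa5, and an interval off 0 is not read as an effect of genotype.

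Germ-like cells also held somatic transcripts, and more of them in KO. Without the mixed group the Tmsb4x ratio was 0.59 and that of Anxa2 0.66, and in the same cells the somatic marker median was 0.986% of the somatic level in WT and 1.45% in KO. Within groups 1 to 6 the Tmsb4x ratio was 0.50 to 0.90, and in the mixed group -0.10. The part of free somatic RNA in these ratios was not tested. For Actg1, the groups with the highest levels held a smaller share of KO germ-like cells: group 6 made up 56.8% of WT and 50.2% of KO cells, and group 7 1.26% and 0.176%. With the KO groups given their WT weights, Actg1 stood at 467 CPM in KO and 512 CPM in WT, a log2 ratio of -0.13, and S100a6 at 10.1 CPM and 9.17 CPM, a ratio of 0.14. For Tmsb4x the same weights left a ratio of 0.35.

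In the somatic-like classes the ratios were mostly a little below 0. In granulosa-like cells they ranged from -0.25 (Actb) to 0.53 (S100a6, on 22 WT and 50 KO UMIs). In theca-like cells they ranged from -0.29 (S100a10) to 0.15 (Anxa1, on 20 and 35 UMIs). In epithelia-like cells they ranged from -0.17 (Anxa5) to 0.07 (Anxa2). The median over all genes was -0.02, 0.01 and 0.03 in these classes. Germ markers were higher in the KO somatic-like classes as a whole, though not in every finer cluster. With Scrublet doublets left out the theca-like ratio of Tmsb4x went from -0.24 to -0.14 and that of Actb from -0.18 to -0.06. That of S100a11 went from -0.21 to -0.07, and the granulosa-like ratio of Tmsb4x from -0.14 to -0.01. With the same limits on cells in both libraries the theca-like ratio of Tmsb4x went the other way, to -0.47. Anxa1, the member known as a glucocorticoid-induced gene, had an epithelia-like ratio of -0.16 (-0.31 to -0.01) on 614 WT and 983 KO UMIs. Anxa5 (-0.17) and Tmsb10 (-0.13) were near it in that class. The granulosa-like ratio of Anxa1 was 0.18 (-0.18 to 0.56) on 97 and 173 UMIs.

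**Figure D5:**
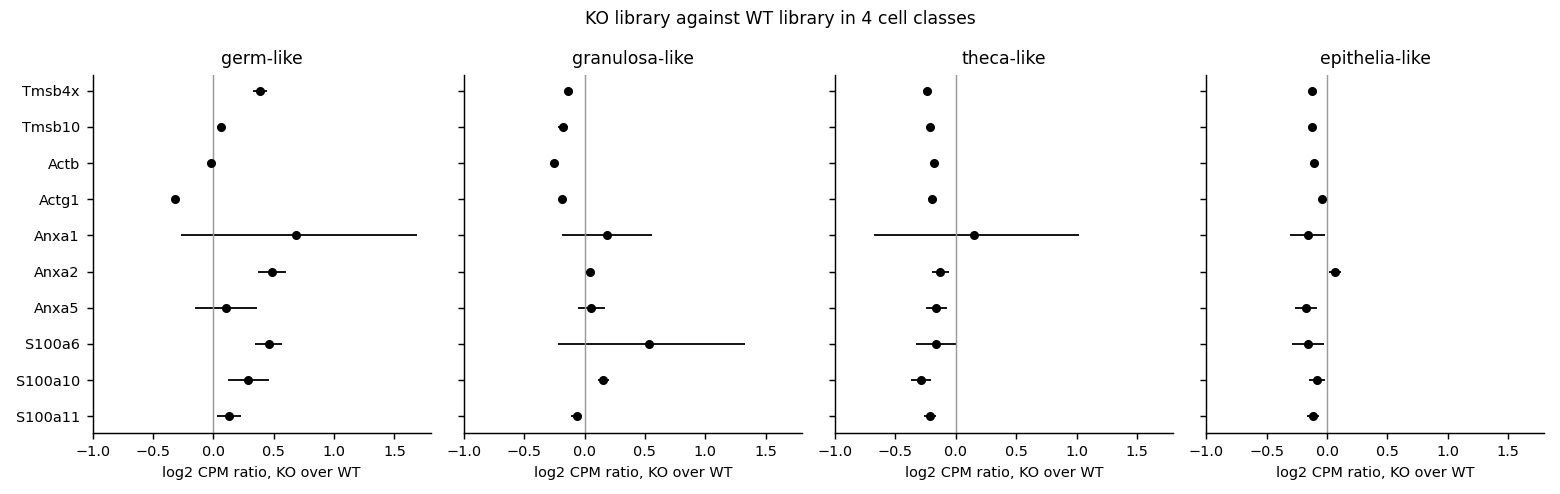
Log2 ratio of KO over WT CPM for each gene in the germ-, granulosa-, theca- and epithelia-like classes, with bars for the 95% counting interval and a line at 0. Tmsb4x lies at 0.38 in germ-like cells and at -0.14, -0.24 and -0.12 in the somatic-like classes, and wide bars mark Anxa1 and S100a6 where UMIs are few.

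Of 94 other genes of the actin pathway and of the annexin and S100 families, 9 of them annexins and 13 S100 genes, 77 had enough UMIs in both libraries. Against the pooled granulosa-, theca- and epithelia-like cells, 34 were lower in WT germ-like cells and 32 in KO, beside 10% and 9.22% of all genes lower, and 1 was higher. The exception was Arpc1a, a subunit of the Arp2/3 complex that nucleates branched filaments, at 489 CPM in germ-like against 182 CPM in pooled somatic-like cells of WT and at 545 against 209 CPM in KO. Acta2, the smooth muscle actin, was lower at 0.778 against 106 CPM in WT and 1.34 against 106 CPM in KO, and Tagln, a filament-binding protein of smooth muscle, at 0.521 against 57.5 CPM and 0.598 against 45.8 CPM. Against single classes, the most negative ratios were those of Myl9 and Gsn for granulosa-like cells, Acta2 and Tagln for theca-like cells, and Tagln with Anxa3 in WT or Gsn in KO for epithelia-like cells, and Arpc5l, another Arp2/3 subunit, was also higher in germ-like than in theca-like cells. Within germ-like cells from group 1 to group 7, 5 of 34 such genes were higher and 4 lower in WT, and 3 of 33 higher and 7 lower in KO, beside the 13.8% and 12.6% of all genes in WT and 11.2% and 17.9% in KO given above, and nothing is read from these counts. Pfn2, a profilin, and Dstn, which severs filaments, were higher in both libraries (WT log2 ratios 2.26 and 1.20, KO 1.34 and 1.25), and Arpc1b was lower (-3.37 and -2.08), as were Pfn1 (-1.46 and -1.61) and Myh9 in KO (-2.90, on 1 UMI in group 7). In theca-like against granulosa-like cells, 12 of 70 were higher and 4 lower in WT, beside 4.41% and 4.85% of all genes, led by Acta2 at 274 against 3.75 CPM and Tpm2, a tropomyosin, at 133 against 5.22 CPM, while S100a1, at 36.4 against 135 CPM, and Myl9, a myosin light chain, at 353 against 703 CPM, were lower. KO gave 12 of 72 higher and 4 lower, beside 3.58% and 3.98% of all genes, led by Acta2 and the calponin Cnn2, with the same 2 named as lower. In epithelia-like against granulosa-like cells, 13 of 71 were higher in each library, beside 3.15% of all genes in WT and 2.77% in KO, led by Tagln2 with Acta2 in WT or Tagln in KO, while Myl9 (113 against 703 CPM in WT) and S100a1 (63.1 against 135 CPM) were again lower. None of these other genes passed the size limit between KO and WT in germ-, granulosa-, theca- or epithelia-like cells, among 74, 72, 68 and 69 with enough UMIs.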

How the data were processed

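The authors counted UMIs per gene and cell barcode from a droplet-based 3-prime library of each genotype with Cell Ranger (3.0.2 per the file headers); the deposited values are raw counts, with no normalization. The submitters' processing notes also name Seurat 3.2.3 and the mm10 build. The handling of reads with several matching genes is not given in the sources used here.

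The study's own limits on cells were applied (WT 1500 to 6500 genes and 5500 to 40000 UMIs, KO 1200 to 5500 genes and 3000 to 30000 UMIs, under 10% mitochondrial UMIs), which left 24547 cells. The 10 members were removed, 2000 variable genes and 30 principal components were taken, and cells were clustered by Leiden at resolution 0.5 with 20 neighbours and seed 1 (scanpy 1.11.5, leidenalg 0.10.2, Python 3.11.15); germ-like cells were clustered again at 0.3, and the finer somatic clusters are those at 1.0. A cluster took a class name where 3 or more of that class's markers were seen in 10% or more of its cells and at over 2-fold the level of other cells. No annotation of cells by the authors was used, so names may differ from theirs. Doublets were called with Scrublet at an expected rate of 8% and kept, and leaving them out was an alternative.

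UMIs were summed per class and library and divided by the summed total (CPM). CPM carries an exact Poisson interval, a ratio an exact conditional interval and a share a Clopper-Pearson interval (SciPy 1.17.1). Cells are not replicates, so no test across cells was made. Cells were also thinned to 3000 UMIs to compare shares of cells with a UMI, which left out no cell. Near-identical transcripts were sought with BLAST+ 2.17.0. All members were named in every comparison. Of the other pathway genes, the 2 with the largest log2 ratio either way among those past the size limit were named. Genes of like pattern were the 5 with the highest Pearson r to Tmsb4x and to Actb among genes at 100 CPM or more in at least 1 class. The members, the gene lists and the comparisons were chosen with earlier results of these data known. The alternatives were other cell limits, another clustering resolution, clustering with the members, doublets left out, thinning, CPM without mitochondrial, ribosomal protein and haemoglobin genes, the mean over cells, another size limit, no minimum of UMIs, and cells left out that carried markers of another class (over 25% of that class's median and at least 2 UMIs). Leaving out the mixed germ-like group, leaving out the S100a6-rich epithelia-like cluster and taking group 6 as the last group were added after seeing the data. The scripts were tested on simulated data with known changes.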

Additional observations from a re-analysis of the deposited data

Results flagged for a closer look

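The KO over WT log2 CPM ratio of 3 members was above 0 in germ-like cells and below 0 in granulosa-, theca- and epithelia-like cells. With 1 library per genotype this difference between classes was not tested. For Tmsb4x the ratio was 0.38 in germ-like cells against -0.14, -0.24 and -0.12 in the somatic-like classes. With doublets left out its granulosa-like ratio was -0.01, and in the largest granulosa-like cluster its KO level was above the WT one. With the same limits on cells in both libraries its theca-like ratio was -0.47. For Tmsb10 the ratio was 0.059 against -0.18, -0.21 and -0.13, and for S100a11 0.13 against -0.06, -0.21 and -0.12. The germ-like ratio of Tmsb10 was not above 0 in every group. It was 0.30, 0.23 and 0.27 in groups 1, 4 and 5, 0.05 in group 2 and -0.002 in group 3. In group 6, the largest, it was -0.07 (-0.11 to -0.03), and in group 7 -0.28. With the KO groups given their WT weights it was 0.02. The granulosa-like ratio of S100a11 turned to 0.053 with doublets left out and to 0.012 with cells carrying markers of another class left out. Beside these values, somatic markers in germ-like cells outside the mixed group stood at a median of 0.986% of the somatic level in WT and 1.45% in KO, and germ markers in granulosa-like cells at 10.5% of the germ level in WT and 16.2% in KO. Their part in the ratios was not tested.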

How the results depend on the processing

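No paired analysis was possible because each genotype is 1 library. All 680 germ over somatic ratios computed under the alternatives kept their sign. So did 409 of 420 KO over WT ratios and 165 of 191 ratios of the last over the first germ group. These counts include the other size limit and the dropped minimum of UMIs, which leave every ratio unchanged and so could not change a sign. The members were also chosen from the germ against granulosa contrast. With the same limits on cells in both libraries, 3 members passed the size limit in theca-like cells between KO and WT, all lower (Tmsb4x -0.47, Tmsb10 -0.40, S100a11 -0.44), beside 1.87% of all genes. The comparison of germ groups 1 and 7 depended most on the clustering. With the members kept among the variable genes, 1 member passed in KO, the log2 ratio of Tmsb10 was -0.37 in WT, and those of Tmsb4x, Actg1 and S100a6 were 0.41, -0.19 and 0.19 in KO. The last group was then 96.4% group 1 cells. At resolution 1.0, with 0.6 for germ-like cells, the last group was 96.9% group 5 cells, the ratio of Tmsb10 was -0.83 and that of Actg1 -1.26 in WT, Actg1 was -1.17 in KO, and Actb was -2.89 and -2.80. A size limit of 0.5 left 1 member in each library. Nothing is read from this count or from that with the members kept, since few members had enough UMIs. With group 6 as the last group, an alternative chosen after seeing the data, 1 member passed in WT, beside 8.72% of all genes. The WT ratio of Tmsb10 was then -0.38. The germ groups themselves change under these settings, with 6 groups when members are kept. Leaving out the mixed germ-like group or the S100a6-rich epithelia-like cluster was also chosen after seeing the data. Without that cluster the epithelia-like KO over WT ratio of S100a6 turned from -0.16 to 0.24. Depth limits Anxa1 and S100a6 most, with 16 and 22 UMIs in WT germ-like and granulosa-like cells, and no value here carries a replicate error.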
